A study of Mus musculus with 12 samples.

Results

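The genes described here are 9 cytokines and receptors of the interleukin-1 (IL-1) family: Il1a, Il1b, Il18, Il33, Il1rn, Il1r2, Il1r1, Il1rl1 and Il1rap. They were taken by symbol from a table of 54532 genes and were followed in every library. All 9 were among the 24102 genes with enough signal to be tested, which were those with at least 0.1 FPKM (counts scaled to gene length and library size) in at least 3 libraries. Whole-colon RNA of 12 mice was sequenced, as 1 library per mouse and 3 mice in each of 4 groups, to ask how loss of STING (gene Tmem173) in myeloid cells alters gene expression in colitis. Tmem173fl/fl mice, labelled WT, carried a floxed Tmem173 and no Cre. Tmem173iΔmye mice, labelled CRE, were Tmem173fl/fl mice that also carried Lyz2-Creert2, a tamoxifen-inducible Cre driven from the Lyz2 gene, which is active in macrophages, monocytes and neutrophils and leaves the gene intact in epithelial, stromal and lymphoid cells. Every mouse, untreated or not, was on the C57BL/6N background, homozygous for the floxed allele and injected with tamoxifen 5 times from an age given in the methods as 5 to 6 or 6 to 8 weeks. Colitis was then induced in 1 group of each genotype with 2.5 to 3% dextran sulfate sodium (DSS), a polymer that injures the epithelium, in the drinking water for 7 days. The other groups are called untreated.

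IL-1 family cytokines act through paired receptor chains. IL-1α and IL-1β bind IL1R1, which recruits the shared accessory chain IL1RAP and signals through MyD88 and IRAK kinases to NF-κB, and IL-33 uses IL1RL1 (ST2) with the same accessory chain. The system is held in check by the receptor antagonist IL-1RN, which occupies IL1R1 without signalling, and by IL1R2, a decoy that binds IL-1 without passing a signal on. IL-1β and IL-18 are made as precursors that caspase-1 cleaves inside inflammasomes, whereas IL-1α and IL-33 act as alarm signals released from damaged cells. In the gut, IL-18 is made mainly by the epithelium, IL-1β mainly by myeloid cells, and IL-33 mainly by stromal and epithelial cells.

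Promoter sequences are shown for Il1r1, Il1r2 and Il1rl1, receptor genes whose colitic groups did not overlap and were lower in Tmem173iΔmye mice (Il1rl1 without passing the test), and for Il18, which was higher. The receptor genes lie in a cluster on chromosome 1 (GRCm38), and Il18 lies on chromosome 9. Each sequence runs from 250 bases before to 50 bases after a transcription start in RefSeq (GRCm38.p6, plus strand), so it holds promoter and the first transcribed bases. Capitals mark matches to 6 motifs searched on both strands. These were the C/EBP motif TTGCNNAA, the AP-1 motif TGANTCA, the ETS motif AGGAAGT of PU.1 and its relatives, the STAT motif TTCNNNGAA, the GATA motif AGATAA and the NF-κB motif.
Il1r1 promoter, chr1:40224830-40225129: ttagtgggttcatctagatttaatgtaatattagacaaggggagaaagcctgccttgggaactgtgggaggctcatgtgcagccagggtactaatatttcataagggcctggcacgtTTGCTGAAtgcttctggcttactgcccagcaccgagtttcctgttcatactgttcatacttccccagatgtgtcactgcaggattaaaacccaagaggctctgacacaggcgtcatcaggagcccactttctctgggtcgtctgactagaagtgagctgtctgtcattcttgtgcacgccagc
Il1r2 promoter, chr1:40085843-40086142: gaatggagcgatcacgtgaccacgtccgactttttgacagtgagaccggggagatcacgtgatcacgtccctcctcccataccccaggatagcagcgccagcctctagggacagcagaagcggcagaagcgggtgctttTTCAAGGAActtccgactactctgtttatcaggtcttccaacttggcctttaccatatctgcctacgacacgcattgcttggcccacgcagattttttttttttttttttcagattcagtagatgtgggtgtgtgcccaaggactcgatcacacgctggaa
Il1rl1 promoter, chr1:40429320-40429619: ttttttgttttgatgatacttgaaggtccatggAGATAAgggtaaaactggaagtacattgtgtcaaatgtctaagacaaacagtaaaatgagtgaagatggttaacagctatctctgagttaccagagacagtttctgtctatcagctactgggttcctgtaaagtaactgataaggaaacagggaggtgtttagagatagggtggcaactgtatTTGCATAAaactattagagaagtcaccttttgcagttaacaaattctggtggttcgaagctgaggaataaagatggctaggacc
Il18 promoter, chr9:50554450-50554749: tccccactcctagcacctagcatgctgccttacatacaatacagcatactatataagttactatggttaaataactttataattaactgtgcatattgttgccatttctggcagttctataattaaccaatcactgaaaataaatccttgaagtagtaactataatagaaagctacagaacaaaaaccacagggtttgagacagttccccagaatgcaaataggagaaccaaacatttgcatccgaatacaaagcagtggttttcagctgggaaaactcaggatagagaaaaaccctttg
The Il1r1 window held 1 C/EBP match, TTGCTGAA, at position -133 from the start. The Il1r2 window held 1 STAT match, TTCAAGGAA, at -111. The Il1rl1 window held a GATA match at -217 and a C/EBP match, TTGCATAA, at -34. No match to the 6 motifs was present in the Il18 window. Such matches are frequent: of 32851 RefSeq promoters of the same length, 10.8% held the C/EBP motif, 7.81% AP-1, 9.35% ETS, 8.3% STAT, 8.46% NF-κB and 11.2% GATA. Il1r1 and Il1rl1 each have a second RefSeq start that is not shown. The second window held an NF-κB match at -232 for Il1r1 and a GATA match at -103 for Il1rl1. A match describes letters in a window and not a bound site.

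Library totals ran from 13823237 to 18718915 counts. Tmem173 itself was at 41.3 ± 3.3 CPM (counts scaled to library size with TMM factors, SD, n = 3) in Tmem173fl/fl colons with DSS and 34.2 ± 12.3 CPM in Tmem173iΔmye colons with DSS, and the groups overlapped, as they did without DSS (20.6 ± 5.46 and 17.7 ± 3.4 CPM), so whole-colon RNA does not show the deletion by its total. Lyz2, the gene that carries the Cre, ran from 150 to 277 CPM in untreated Tmem173fl/fl and from 76.4 to 114.7 CPM in untreated Tmem173iΔmye colons. In colitis it ran from 336 to 505 CPM and from 231 to 357 CPM in the same order, with overlap. Epithelial markers were high in all libraries (10 genes, 4540 to 15430 CPM summed). Pancreas markers (10 genes) varied between libraries of every group, from 103 to 4026 CPM summed in untreated Tmem173fl/fl, 117 to 2165 CPM in untreated Tmem173iΔmye, 630 to 9693 CPM in colitic Tmem173fl/fl and 128 to 12110 CPM in colitic Tmem173iΔmye colons, and their part in the results was not tested. In 3 libraries (untreated Tmem173fl/fl replicate 3, untreated Tmem173iΔmye replicate 3 and colitic Tmem173iΔmye replicate 5) Xist was high and Y-linked genes were at 0, the female pattern, while the other 9 had the male pattern. Colitic Tmem173fl/fl mice had no library of the female pattern, and colitic Tmem173iΔmye replicate 5 was the highest or lowest of its group for 8 of the 9 genes. In a group of 3, however, every gene has a highest and a lowest library. Replicate 1 of that group, of male pattern, was an extreme for Il1a, Il1b, Il1r1, Il1rap, Il18, Il33 and Il1rl1. Where calls on the 9 genes change without these libraries, counts or values without them are given. Calls on the other gene lists were not recounted without them. The comparisons share libraries, since each group enters more than 1 of them.

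DSS colitis raised most of the family in Tmem173fl/fl colons. By edgeR's quasi-likelihood test, 7 of the 9 genes rose (Benjamini-Hochberg adjusted p under 0.05 and a log2 fold change of at least 1), and none fell; 22.5% of all genes tested were called in this comparison, 14.9% higher and 7.61% lower. The median log2 fold change of the 9 genes was 2.96, against 0.03 over all genes tested. In 8 of the 9 the colitic and untreated libraries did not overlap in CPM, as in 49.3% of all genes. Leaving out any 1 library kept the count at 7. In colitic Tmem173iΔmye colons 5 of the 9 rose against untreated Tmem173iΔmye colons, against a background of 2.08% of genes called, 1.48% higher and 0.597% lower. The median log2 fold change of the 9 genes was 2.14. The groups did not overlap for 8 genes, as in 21.5% of all genes. This count of 5 depended on single libraries: it was 8 without colitic replicate 5, 1 without untreated replicate 1 or 2, and 0 without untreated replicate 3. In the last fit the log2 differences were 3.04 for Il1a, 1.59 for Il1rn, 1.49 for Il1r1, 2.51 for Il33 and 2.41 for Il1rl1. Their edgeR adjusted p ran from 0.0527 to 0.144. Calls over all genes went from 501 to 1469 without colitic replicate 5 and to 72, 51 and 57 without untreated replicates 1, 2 and 3. Without colitic replicates 1 and 2 they fell to 238 and 372, and the count of the 9 stayed at 5. Without replicate 1, however, Il18 was called (1.96, edgeR adjusted p = 0.0294) and Il1rl1 was not (2.21, adjusted p = 0.0512). Over the libraries of male pattern, 2 against 2, the count was 6, with 625 calls over all genes. Il1b (2.69, edgeR adjusted p = 0.00697) and Il1r2 (3.07, adjusted p = 0.0185) were then called and Il1rn was not.

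**Figure D1:**
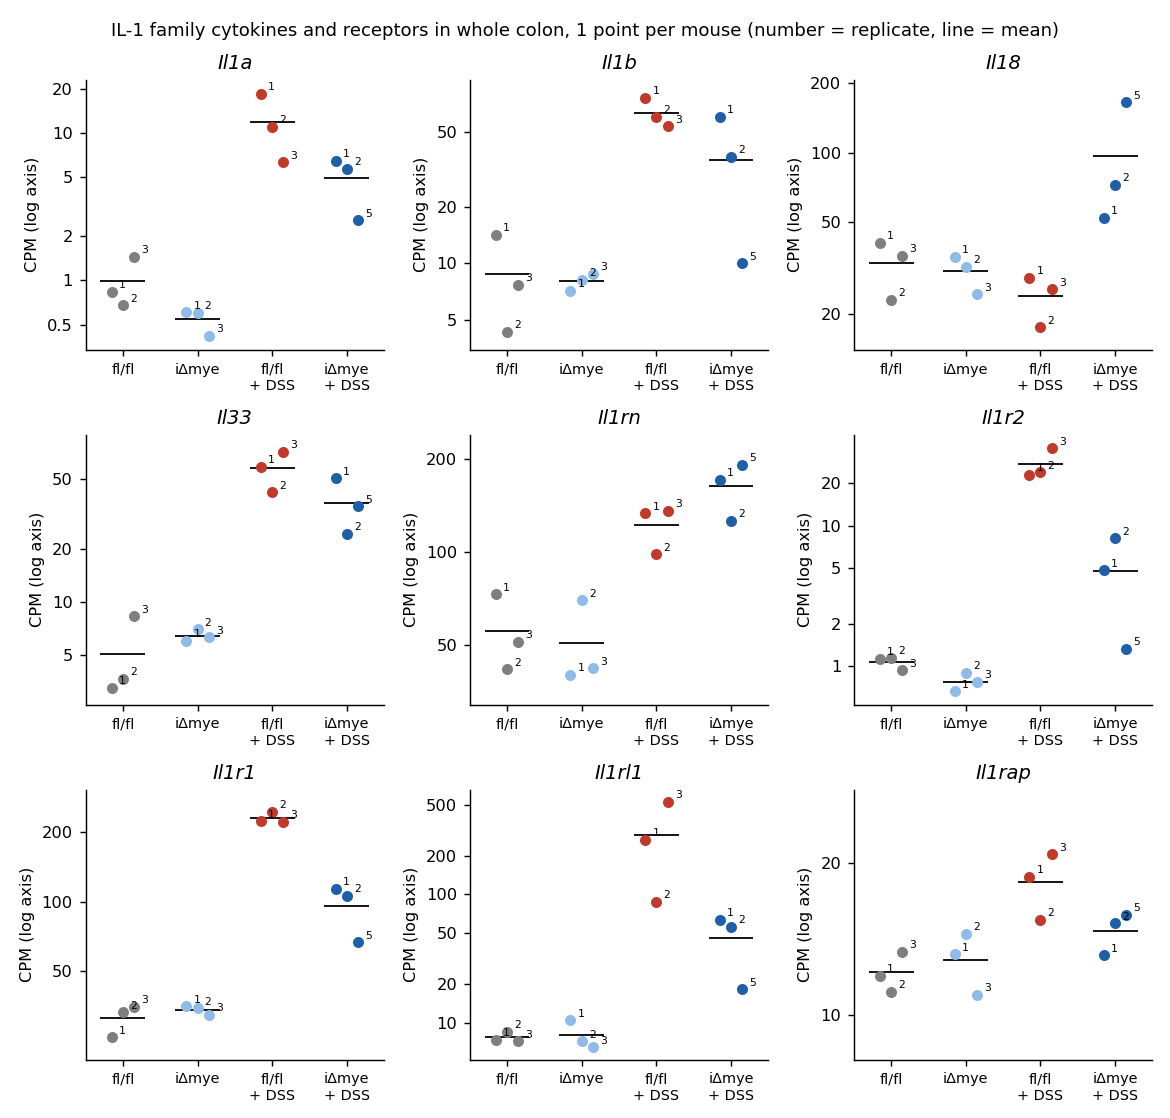
Levels of the 9 genes in each library, as CPM on log axes, by genotype and DSS; points are single mice with their replicate number and lines are group means. Il1r1, Il1r2 and Il1rl1 sit lower, and Il18 higher, in all 3 colitic Tmem173iΔmye libraries than in any colitic Tmem173fl/fl library.

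Genotype was compared next. Without DSS, edgeR called none of the 9 genes (adjusted p = 1 for each), none at an unadjusted p under 0.05, and 0% of all genes tested, of which 720 had an unadjusted p under 0.05. DESeq2 also called none of the 9 and 3 of all genes, and limma none of the 9 and 3 of all genes. The groups did not overlap for Il1a and Il1r2, both lower in Tmem173iΔmye colons, as in 7.35% of all genes. In colitis, 3 of the 9 genes differed by edgeR's test: Il1r1 and Il1r2 were lower and Il18 was higher in Tmem173iΔmye mice. Over all genes 2.81% were called, 0.822% higher and 1.99% lower. The colitic groups did not overlap for these 3 genes and for Il1rl1, as in 26.8% of all genes, and the median log2 difference of the 9 was -0.83, against 0.02 over all genes.

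All 3 calls were lost when any 1 of the 3 colitic Tmem173fl/fl libraries, or colitic Tmem173iΔmye replicate 2, was left out, with edgeR adjusted p from 0.0718 to 0.136. The log2 differences in those fits were -1.22 to -1.35 for Il1r1, -2.30 to -3.15 for Il1r2 and 1.83 to 2.18 for Il18, and calls over all genes fell from 678 to 27, 204 and 123 without colitic Tmem173fl/fl replicates 1, 2 and 3 and to 46 without colitic Tmem173iΔmye replicate 2. They rose to 1593 without colitic Tmem173iΔmye replicate 1; the calls on the other gene lists were not recounted in these fits. Il1rl1 was called instead without colitic Tmem173fl/fl replicate 2 (-3.10, adjusted p = 0.0412), and Il1r2 also missed the threshold without colitic Tmem173iΔmye replicate 1 (adjusted p = 0.0692). Without colitic Tmem173iΔmye replicate 5, the library of female pattern, the same 3 genes were called, with 508 calls over all genes. With limma on log2(FPKM + 0.1) none of the 9 was called, whereas DESeq2 called these 3 with adjusted p from 6.75e-05 to 9.40e-05. The limma fit gave adjusted p = 0.0948 for Il1r1, 0.119 for Il1r2 and 0.138 for Il18.

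**Figure D2:**
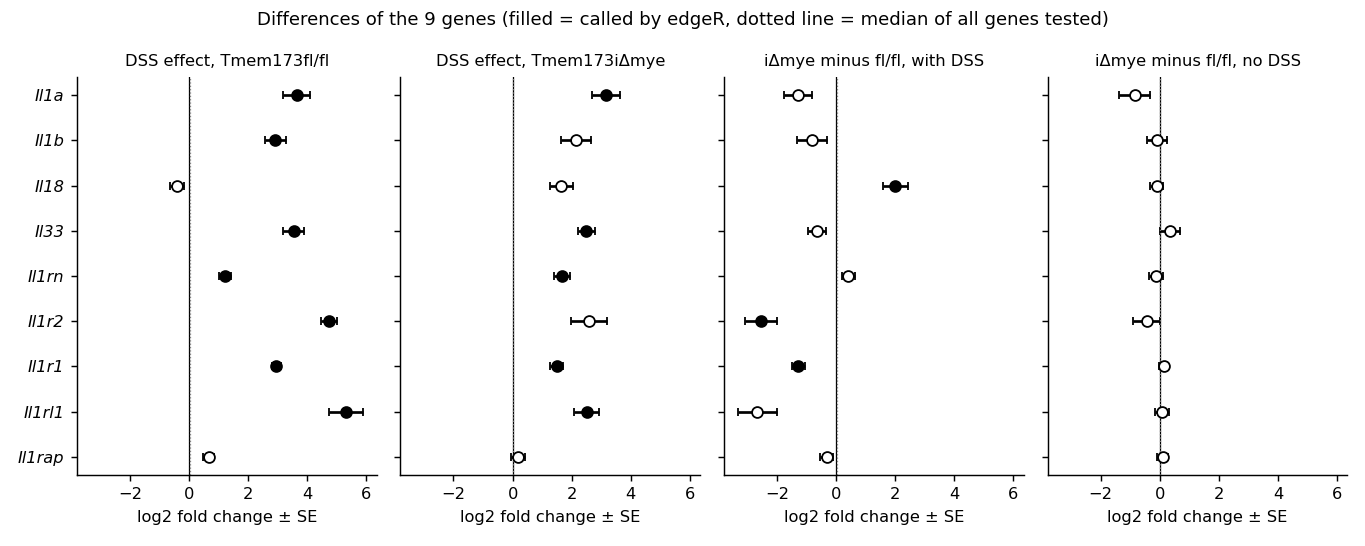
Log2 fold change of each gene with its standard error in 4 comparisons of 3 against 3 libraries; filled points are genes called by edgeR and the dotted line is the median of all genes tested. In colitis Il1r1 and Il1r2 were lower and Il18 higher in Tmem173iΔmye mice, and no gene was called between the untreated groups.

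Among the ligands, Il1b, the inflammasome-processed cytokine of myeloid cells (ENSMUSG00000027398, chromosome 2, 129364570 to 129371139, minus strand), was at 14.2, 4.33 and 7.70 CPM in untreated Tmem173fl/fl colons and at 75.6, 60.2 and 53.4 CPM in colitic ones. All colitic libraries lay above all untreated ones, and Il1b rose by 2.93 ± 0.36 (log2, SE; edgeR adjusted p = 0.00017). In Tmem173iΔmye mice the values were 7.16, 8.14 and 8.77 CPM untreated and 60.0, 36.7 and 10.01 CPM in colitis. Colitic replicate 1 was within the range of the colitic Tmem173fl/fl mice, whereas replicate 5 was barely above its untreated group. The DSS difference there was 2.14 ± 0.50 (edgeR adjusted p = 0.061). It became 2.62 (adjusted p = 0.000186) without replicate 5 and 1.54 (adjusted p = 0.176) without replicate 1. Between colitic genotypes Il1b differed by -0.83 ± 0.51 (adjusted p = 0.403) with overlapping groups. This difference was -1.46 without Tmem173iΔmye replicate 1 and -0.39 without replicate 5.

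Il1a, the IL-1 form that is active without caspase-1 (ENSMUSG00000027399, chromosome 2, 129299610 to 129309972, minus strand), was the least abundant ligand. Untreated libraries held 0.833, 0.677 and 1.44 CPM in Tmem173fl/fl and 0.607, 0.599 and 0.421 CPM in Tmem173iΔmye mice. In colitis the values were 18.4, 10.98 and 6.33 CPM in Tmem173fl/fl and 6.48, 5.72 and 2.55 CPM in Tmem173iΔmye mice. Every colitic library was above every untreated one, and the colitic genotypes overlapped through Tmem173fl/fl replicate 3 and Tmem173iΔmye replicate 1. Il1a rose with DSS by 3.65 ± 0.45 (edgeR adjusted p = 0.000193) in Tmem173fl/fl and by 3.16 ± 0.48 (adjusted p = 0.0114) in Tmem173iΔmye mice. The difference between colitic genotypes was -1.29 ± 0.47 (adjusted p = 0.171), and that between untreated genotypes was -0.85 ± 0.52 (adjusted p = 1). Il1a itself held only 7 to 23 counts in the untreated libraries, so its untreated level rests on few reads. A transcript on the opposite strand, Gm14023, overlaps Il1a and held 5 to 23 counts per library, and the use of strand in counting is not stated.

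Il33, an alarm cytokine of stromal and epithelial nuclei (ENSMUSG00000024810, chromosome 19, 29925114 to 29960718, plus strand), was at 3.26, 3.65 and 8.26 CPM in untreated Tmem173fl/fl and 6.01, 7.00 and 6.31 CPM in untreated Tmem173iΔmye colons. Colitic libraries held 58.6, 41.8 and 71.1 CPM in Tmem173fl/fl and 50.2, 24.3 and 34.8 CPM in Tmem173iΔmye mice. Colitic and untreated libraries were far apart in both genotypes, and the colitic genotypes overlapped. Il33 rose by 3.55 ± 0.36 (edgeR adjusted p = 5.12e-05) in Tmem173fl/fl and by 2.49 ± 0.29 (adjusted p = 0.00342) in Tmem173iΔmye mice, where it had the smallest adjusted p of the 9 genes. The colitic genotypes differed by -0.65 ± 0.30 (adjusted p = 0.268).

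Il18, the caspase-1-processed cytokine of the gut epithelium (ENSMUSG00000039217, chromosome 9, 50554827 to 50581840, plus strand), followed another course. Its level was 40.9, 23.1 and 35.8 CPM in untreated and 28.9, 17.6 and 25.7 CPM in colitic Tmem173fl/fl colons, and these groups overlapped (log2 difference -0.40 ± 0.24, edgeR adjusted p = 0.237). In Tmem173iΔmye mice it was 35.4, 32.2 and 24.4 CPM untreated and 52.4, 72.6 and 165 CPM in colitis. All 3 colitic Tmem173iΔmye libraries exceeded the other 9, and replicate 5 was the highest by a wide margin. The DSS difference in Tmem173iΔmye mice was 1.66 ± 0.38 (adjusted p = 0.0533), without replicate 5 it was 1.05 (adjusted p = 0.0145), and over the libraries of male pattern it was 0.915 (adjusted p = 0.0795).

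Between colitic genotypes Il18 was higher in Tmem173iΔmye mice by 2.0 ± 0.41 (edgeR adjusted p = 0.0423), 4.03-fold in group means. Without colitic Tmem173iΔmye replicate 5 the difference was 1.37 (adjusted p = 0.0384). The DSS effect itself differed between the genotypes by 2.13 ± 0.51 (edgeR interaction, adjusted p = 0.0417). Over the 9 libraries of male pattern this interaction was 1.27 (adjusted p = 0.19), and it also missed the threshold in 8 of the 12 fits that each left out 1 library. Its size over the 12 fits ran from 1.48 to 2.42. On the opposite strand, Bco2 and Tex12 overlap Il18 with 62 to 182 and 11 to 85 counts per library, and the use of strand in counting is not stated.

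Epithelial markers differed between the colitic genotypes in the same direction as Il18, but their sum was below the untreated range in both. It ran from 12260 to 15430 CPM in untreated, from 4540 to 7772 CPM in colitic Tmem173fl/fl and from 9743 to 11610 CPM in colitic Tmem173iΔmye libraries, with no marker at 0. Of the 10 markers, 1 was called higher in colitic Tmem173iΔmye mice, as were 5 of 10 markers of surface colonocytes. Over all genes 0.822% were called higher in this comparison. The colonocyte markers summed to 12200 to 15390 CPM in untreated, 4850 to 7266 CPM in colitic Tmem173fl/fl and 13440 to 14230 CPM in colitic Tmem173iΔmye libraries, the last within the untreated range. Per 1000 CPM of epithelial markers Il18 was 3.94 ± 0.671 CPM in Tmem173fl/fl + DSS and 8.71 ± 5.03 CPM in Tmem173iΔmye + DSS mice, with ranges of 3.30 to 4.64 and 5.37 to 14.5. Per 1000 CPM of colonocyte markers it was 3.92 ± 0.601 and 6.95 ± 4.11 CPM, and these ranges overlapped (3.53 to 4.61 and 3.84 to 11.6). Both scales were chosen after the values were seen, and the part of these cells in the Il18 values was not tested. In whole-tissue RNA, fewer cells of a type and less RNA per cell cannot be told apart.

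Il1rn, the receptor antagonist (ENSMUSG00000026981, chromosome 2, 24336853 to 24351494, plus strand), rose with DSS in both genotypes. Untreated colons held 73.1, 41.9 and 51.4 CPM in Tmem173fl/fl and 40.2, 69.9 and 42.1 CPM in Tmem173iΔmye mice, and colitic colons 133, 98.3 and 136 CPM and 171, 126 and 192 CPM in the same order. All colitic libraries were above all untreated ones, and the colitic genotypes overlapped. The rise was 1.21 ± 0.21 (edgeR adjusted p = 0.00165) in Tmem173fl/fl and 1.68 ± 0.27 (adjusted p = 0.0134) in Tmem173iΔmye mice, where it was 1.47 (adjusted p = 0.0502) over the libraries of male pattern. The colitic genotypes differed by 0.41 ± 0.22 (adjusted p = 0.348), so Il1rn and Il18 were the only members above 0 in that comparison.

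Il1r2, the decoy receptor of neutrophils and macrophages (ENSMUSG00000026073, chromosome 1, 40074079 to 40125231, plus strand), was close to 1 CPM in untreated colons, with 1.14, 1.15 and 0.939 CPM in Tmem173fl/fl and 0.667, 0.898 and 0.781 CPM in Tmem173iΔmye mice. In colitis it was at 23.1, 23.9 and 35.6 CPM in Tmem173fl/fl and 4.84, 8.15 and 1.33 CPM in Tmem173iΔmye mice. The colitic groups were clearly separated, and Tmem173iΔmye replicate 5 lay close to the untreated range. Il1r2 rose with DSS by 4.74 ± 0.26 (edgeR adjusted p = 1.69e-06) in Tmem173fl/fl mice, and the DSS difference in Tmem173iΔmye mice was 2.59 ± 0.61 (adjusted p = 0.0593). Without colitic replicate 5 the difference in Tmem173iΔmye mice was 3.06 (adjusted p = 0.00126). Il1r2 was lower in colitic Tmem173iΔmye than Tmem173fl/fl mice, with a log2 difference of -2.54 ± 0.54 (adjusted p = 0.0453) and group means 5.77-fold apart. This adjusted p was 0.0502 with DESeq2 size factors in edgeR and 0.0555 with another filter on low counts, but 0.0332 with library totals alone, 0.0132 with a replicate block, 0.00534 with no filter and 6.75e-05 with DESeq2. The block fit rests on replicates 1 and 2 of each genotype, because colitic Tmem173fl/fl replicate 3 and Tmem173iΔmye replicate 5 have no partner. The interaction was -2.08 (adjusted p = 0.133).

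Neutrophil markers differed between the groups in the same direction as Il1r2. In colitic Tmem173iΔmye replicates 1, 2 and 5 they summed to 353, 224 and 293 CPM, and in colitic Tmem173fl/fl replicates 1, 2 and 3 to 932, 552 and 737 CPM. The sum over 12 genes was 47.8 to 107.7 CPM in untreated, 552 to 932 CPM in Tmem173fl/fl + DSS and 224 to 353 CPM in Tmem173iΔmye + DSS libraries. Of 11 tested markers, 6 were called lower in colitic Tmem173iΔmye mice, against 1.99% of all genes. Mpo was at 0 in untreated Tmem173fl/fl and Mmp8 in untreated Tmem173iΔmye colons, and no marker was at 0 in colitis. Per 1000 CPM of these markers Il1r2 was 38.8 ± 12.4 CPM in Tmem173fl/fl + DSS and 18.2 ± 16.4 CPM in Tmem173iΔmye + DSS mice, and the ranges overlapped (24.8 to 48.3 and 4.56 to 36.4). Monocyte and macrophage markers summed to 815 to 1115 CPM and 343 to 767 CPM in the same groups. The part of these cells in the Il1r2 and Il1b values was not tested.

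Il1r1, the signalling receptor for both IL-1 forms (ENSMUSG00000026072, chromosome 1, 40225080 to 40317257, plus strand), rose in both genotypes and to different levels. Untreated libraries held 25.6, 32.9 and 34.8 CPM in Tmem173fl/fl and 35.0, 34.2 and 32.2 CPM in Tmem173iΔmye mice. In colitis Il1r1 was at 223, 246 and 222 CPM in Tmem173fl/fl and 114, 106 and 66.4 CPM in Tmem173iΔmye mice. The 3 levels, untreated, colitic Tmem173iΔmye and colitic Tmem173fl/fl, did not overlap. Il1r1 rose by 2.96 ± 0.16 (edgeR adjusted p = 1.69e-06) in Tmem173fl/fl and by 1.49 ± 0.23 (adjusted p = 0.0114) in Tmem173iΔmye mice. It was lower in colitic Tmem173iΔmye than Tmem173fl/fl mice, with a log2 difference of -1.28 ± 0.23 (adjusted p = 0.0291) and group means 2.42-fold apart.

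The DSS effect on Il1r1 was smaller in Tmem173iΔmye mice by an interaction of -1.40 ± 0.27 (edgeR adjusted p = 0.0173). It was -1.34 (adjusted p = 0.0312) over the libraries of male pattern and -1.21 (adjusted p = 0.0119) without colitic Tmem173iΔmye replicate 5, and it missed the threshold in 1 of 12 fits that left out 1 library (untreated Tmem173fl/fl replicate 1, -1.27, adjusted p = 0.0517). In the interaction, 2 of the 9 genes were called, Il1r1 lower and Il18 higher, against 2.55% of all genes, 1.61% lower and 0.934% higher. Fibroblast markers moved with Il1r1: they summed to 1367 to 1721 CPM in untreated, 9056 to 11290 CPM in Tmem173fl/fl + DSS and 2682 to 3941 CPM in Tmem173iΔmye + DSS libraries. Of these 9 markers, 8 were called lower in colitic Tmem173iΔmye than Tmem173fl/fl mice, against 1.99% of all genes. Per 1000 CPM of fibroblast markers Il1r1 was 20.4 ± 3.66 and 21.5 ± 3.23 CPM in the untreated groups, 23.7 ± 3.72 CPM in Tmem173fl/fl + DSS and 29.7 ± 9.46 CPM in Tmem173iΔmye + DSS mice. The colitic ranges overlapped (19.8 to 27.2 and 20.6 to 39.5). Il33 on the same scale was 5.86 ± 1.68 CPM and 10.9 ± 1.84 CPM in the colitic groups. These ratios were chosen after the values were seen and were not tested.

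**Figure D3:**
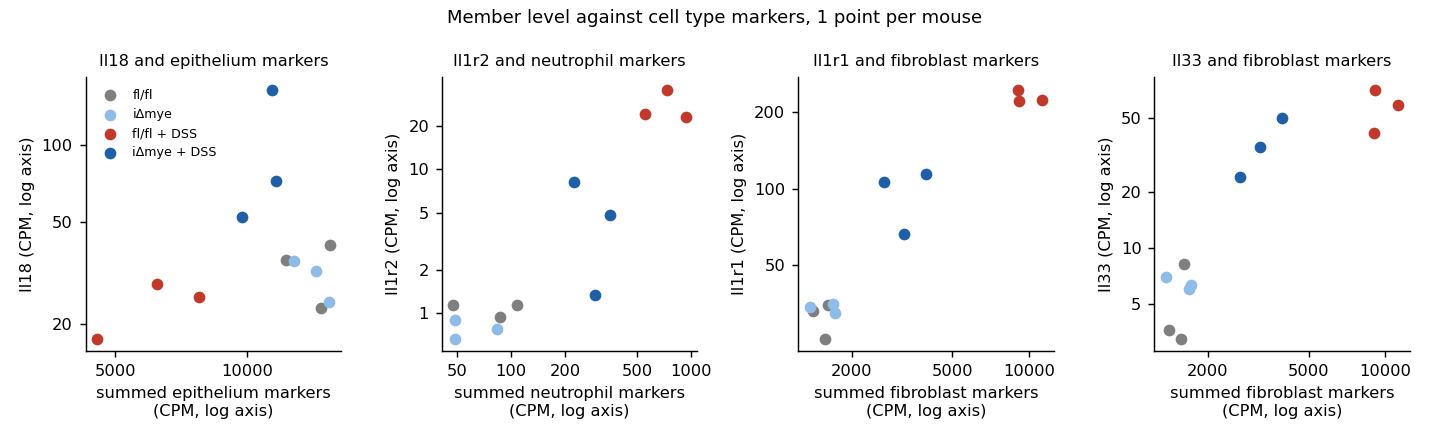
Il18, Il1r2, Il1r1 and Il33 (CPM, log axes) against the summed CPM of markers of epithelium, neutrophils and fibroblasts in the same library, with 1 point per mouse coloured by group. Colitic Tmem173iΔmye libraries lie between the untreated and colitic Tmem173fl/fl libraries for neutrophil and fibroblast markers, and Il18 is higher in them than in untreated libraries at fewer epithelial markers.

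Il1rl1, the IL-33 receptor ST2 of mast cells, type 2 and regulatory lymphocytes and stromal cells (ENSMUSG00000026069, chromosome 1, 40429570 to 40465415, plus strand), had the largest DSS difference of the 9 in Tmem173fl/fl mice and the widest spread. It was at 7.35, 8.53 and 7.14 CPM in untreated and 265, 87.3 and 525 CPM in colitic Tmem173fl/fl colons. In Tmem173iΔmye mice it was at 10.4, 7.18 and 6.43 CPM untreated and 63.6, 56.0 and 18.2 CPM in colitis. All colitic libraries exceeded the untreated ones, and the colitic genotypes did not overlap, although Tmem173fl/fl replicate 2 lay near the upper Tmem173iΔmye values. Il1rl1 rose by 5.32 ± 0.57 (edgeR adjusted p = 7.79e-05) in Tmem173fl/fl and by 2.52 ± 0.42 (adjusted p = 0.0169) in Tmem173iΔmye mice. The rise in Tmem173fl/fl mice ran from 4.57 to 5.73 with single libraries left out. The colitic genotypes differed by -2.68 ± 0.66 (adjusted p = 0.0686), and the interaction was -2.73 (adjusted p = 0.0698). The genotype difference was -1.94 (adjusted p = 0.1455) without colitic Tmem173fl/fl replicate 3 and -3.10 (adjusted p = 0.0412) without replicate 2. DESeq2 called the genotype difference (-2.65, adjusted p = 0.000221). Mast cell markers summed to 44.2 to 58.3 CPM in Tmem173fl/fl + DSS and 16.4 to 41.0 CPM in Tmem173iΔmye + DSS libraries. Fibroblast markers differed as given above, and endothelial markers summed to 585 to 809 CPM and 216 to 440 CPM in the same groups. T cell and innate lymphoid cell markers overlapped, at 121 to 161 CPM (mean 138) and 104 to 186 CPM (mean 150). The part of these cells in the Il1rl1 values was not tested.

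Il1rap, the accessory chain shared by the IL-1 and IL-33 receptors (ENSMUSG00000022514, chromosome 16, 26581704 to 26730117, plus strand), had the smallest SD of log2 CPM over the 12 libraries of the 9 genes (0.265). It ranged from 11.1 to 13.3 CPM in untreated Tmem173fl/fl, 10.9 to 14.5 CPM in untreated Tmem173iΔmye, 15.4 to 20.8 CPM in colitic Tmem173fl/fl and 13.1 to 15.8 CPM in colitic Tmem173iΔmye colons. With DSS it was higher in Tmem173fl/fl mice by 0.66 ± 0.18 (edgeR adjusted p = 0.0187), under the fold minimum, and the difference in Tmem173iΔmye mice was 0.19 (adjusted p = 0.762). The count of each gene adds up its isoforms, so membrane and soluble forms of Il1rap, Il1rl1 and Il1r2, and secreted and intracellular forms of Il1rn, could not be separated. Further transcripts overlap Il1b, Il1r1, Il1r2 and Il1rap and held at most 33 counts in any library. The 33 counts were of Gm37347, which overlaps Il1r2 on the same strand. Il1r2 itself held only 11 to 17 counts in untreated libraries and 22 in colitic Tmem173iΔmye replicate 5.

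Per gene length, the order of the family changed with colitis. In untreated Tmem173fl/fl colons Il18 was the most abundant member at 31.4 FPKM, followed by Il1rn at 9.77 FPKM, and both stood apart from the next gene, Il1r1, at 4.76 FPKM. Untreated Tmem173iΔmye colons had the same top 3. In colitic Tmem173fl/fl mice Il1rl1 led at 43.0 FPKM, ahead of Il1r1 at 36.6, Il1b at 33.4 and Il18 at 23.6 FPKM, though Il1rl1 and Il1r1 overlapped and so did Il1r1 and Il1b. In colitic Tmem173iΔmye mice Il18 led at 92.2 FPKM, apart from Il1rn at 29.1 FPKM, while Il1rn, Il1b, Il1r1, Il33 and Il1rl1 each overlapped with its neighbour. Il1rap, the chain that IL1R1 and ST2 share, had the lowest mean in both colitic groups, at 1.63 and 1.27 FPKM. It overlapped with Il1a and Il1r2 in colitic Tmem173iΔmye mice. These orders depend on the gene lengths used, 11360 bases for Il1rap, 5535 for Il1rn and 1031 for Il18. In mean CPM Il1rn was above Il18 in untreated Tmem173fl/fl (55.45 and 33.24) and colitic Tmem173iΔmye colons (163.1 and 96.74). Il1rap was above Il1a in mean CPM in both colitic groups (18.35 and 11.91 in Tmem173fl/fl, 14.69 and 4.918 in Tmem173iΔmye).

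Ratios within a library set antagonists against their targets. With 3 against 3 libraries the exact permutation test cannot go below p = 0.1, and all 16 ratio comparisons (4 ratios in 4 comparisons) had Benjamini-Hochberg adjusted p of at least 0.267. The FPKM ratio of Il1rn to Il1b was 1.77, 3.23 and 2.27 in untreated and 0.609, 0.564 and 0.881 in colitic Tmem173fl/fl colons, without overlap. Values below 1 depend on the scaling to gene length. In CPM Il1rn was above Il1b in these colitic libraries (133, 98.3 and 136 against 75.6, 60.2 and 53.4). The FPKM ratio was 1.91, 2.91 and 1.64 in untreated and 0.984, 1.18 and 6.49 in colitic Tmem173iΔmye colons, where replicate 5 was far above the rest. The log2 difference between colitic genotypes was 1.55 (exact permutation p = 0.1, two-sided, adjusted p = 0.267), and 0.69 without replicate 5. The decoy-to-receptor ratio of Il1r2 to Il1r1 was 0.347, 0.326 and 0.536 in colitic Tmem173fl/fl and 0.147, 0.261 and 0.0761 in colitic Tmem173iΔmye colons, also without overlap (log2 difference -1.46, exact permutation p = 0.1). Without DSS it was 0.107 to 0.169 in Tmem173fl/fl and 0.0807 to 0.104 in Tmem173iΔmye colons, again lower without overlap (-0.51, exact permutation p = 0.1).

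The ratio of the IL-33 receptor to its ligand, Il1rl1 to Il33, was 1.89, 0.875 and 3.08 in colitic Tmem173fl/fl and 0.534, 0.968 and 0.225 in colitic Tmem173iΔmye colons, which overlapped (exact permutation p = 0.2). Il18bp, a soluble protein that neutralises IL-18, stood to Il18 at 0.195, 0.673 and 0.201 in colitic Tmem173fl/fl and 0.330, 0.358 and 0.113 in colitic Tmem173iΔmye colons (exact permutation p = 0.7). Il18bp and Il18 were thus not separable between the colitic genotypes as a ratio, and the sign of that difference turned with single libraries.

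**Figure D4:**
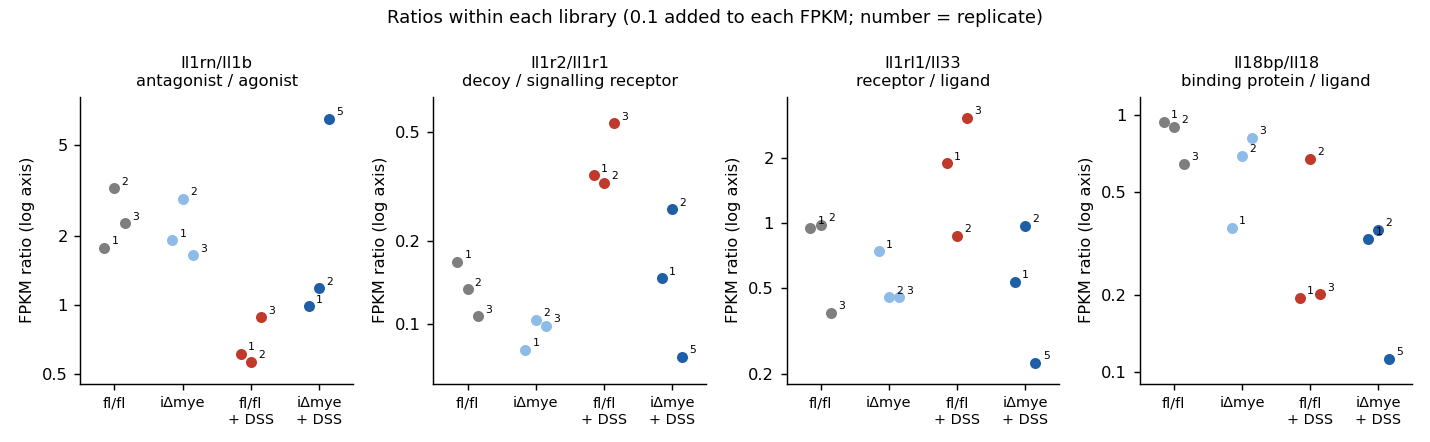
Ratios of FPKM (0.1 added to each) within each library on log axes; points are mice with their replicate number. On this scale Il1rn to Il1b is below 1 in all colitic Tmem173fl/fl libraries, whereas in CPM Il1rn is above Il1b in each of them. Il1r2 to Il1r1 is lower in each colitic Tmem173iΔmye than in each colitic Tmem173fl/fl library.

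Among the other genes of the family, 7 of 12 were tested, and in Tmem173fl/fl mice DSS raised 4 and lowered 1 (14.9% of all genes were called higher and 7.61% lower). Il1rl2, the IL-36 receptor, rose by 2.79 ± 0.22 (edgeR adjusted p = 1.23e-05), and Il18rap, the accessory chain of the IL-18 receptor, by 2.46 ± 0.23 (adjusted p = 3.24e-05), while Il18bp fell by 1.79 in log2 (adjusted p = 0.00245). Il1f9 (IL-36γ) and Il1f8 (IL-36β) were at or under 3 counts in each untreated Tmem173fl/fl library, so no fold is given; Il1f9 reached 4.38 ± 0.943 CPM and Il1f8 0.353 ± 0.179 CPM in colitis. The median of the 7 was 2.46 as fitted and 0.78 with these genes at their bound. In Tmem173iΔmye mice none of the 7 was called with DSS by edgeR. Between colitic genotypes Il1f9 was at 0.786 ± 0.365 CPM in Tmem173iΔmye mice (log2 difference -2.48, adjusted p = 0.0296) and Il1rl2 at 10.2 ± 2.13 against 31.7 ± 2.33 CPM (-1.64, adjusted p = 0.0166), both lower. The DSS effect on Il18bp differed between the genotypes by 2.04 (edgeR interaction, adjusted p = 0.0373). Over all genes 1.99% were called lower between colitic genotypes and 0.934% higher in the interaction.

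Of 18 tested genes that process and release these cytokines, 3 rose and 3 fell with DSS in Tmem173fl/fl mice (median log2 fold change -0.22), where 14.9% of all genes were called higher and 7.61% lower. Nlrp3, the inflammasome sensor of myeloid cells, rose by 3.43 (edgeR adjusted p = 8.67e-06), Prtn3, a neutrophil protease, by 2.47 (adjusted p = 0.00175) and Mefv, the pyrin sensor, by 1.5 (adjusted p = 0.00192). Nlrp6 fell by 1.69 (adjusted p = 4.79e-05), Casp1 fell by 1.53 (adjusted p = 4.98e-05) and Nlrp1b fell by 1.35 (adjusted p = 0.000221). In Tmem173iΔmye mice edgeR called none with DSS. Casp1, the protease that matures IL-1β and IL-18, was at 58.0 ± 8.07 CPM in Tmem173fl/fl + DSS and 142.8 ± 44.3 CPM in Tmem173iΔmye + DSS mice (log2 difference 1.29, adjusted p = 0.0344), and Nlrp1b differed by 1.07 (adjusted p = 0.0495). Casp1 thus fell with DSS in Tmem173fl/fl mice and stood higher in Tmem173iΔmye + DSS mice, where the summed epithelial markers were also higher. The part of epithelial cells in the Casp1 values was not tested. The interaction called Nlrp1b (1.31), Nlrp6 (1.21) and Casp8 (1.10) with edgeR adjusted p of 0.021, 0.0382 and 0.0191. Over all genes 0.822% were called higher between colitic genotypes and 0.934% higher in the interaction.

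Of 16 genes that relay the signal from the receptors, 3 were called with DSS in Tmem173fl/fl mice, a share near the 22.5% of all genes. DSS raised Map3k8, a kinase upstream of ERK, by 2.89 (edgeR adjusted p = 2.11e-05) and Irak3, a brake on IRAK signalling, by 2.45 (adjusted p = 1.89e-05), while Peli1, a ubiquitin ligase, fell by 1.03 (adjusted p = 0.000192). In Tmem173iΔmye mice Map3k8 alone was called with DSS, at 1.69 (adjusted p = 0.0264). Irak3 alone was called between colitic genotypes, at 16.4 ± 4.95 CPM in Tmem173iΔmye against 40.6 ± 5.94 CPM in Tmem173fl/fl mice (-1.31, adjusted p = 0.0364). Over all genes 1.99% were called lower there. The other 13, among them the adaptor Myd88, were not called with DSS in Tmem173fl/fl mice, and the median log2 fold change of the 16 was 0.09 there and between colitic genotypes.

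Genes that IL-1 is known to induce mostly rose with DSS. Of 20, 17 rose with DSS in Tmem173fl/fl mice (median log2 fold change 4.02), 12 rose in Tmem173iΔmye mice, and 11 were lower and none higher in Tmem173iΔmye + DSS than in Tmem173fl/fl + DSS mice (median -1.90, or -1.52 with genes at the floor at their bound). Over all genes the shares called were 14.9% higher, 1.48% higher and 1.99% lower in these comparisons. Lcn2, an antimicrobial protein of epithelium and neutrophils, went from 2.31 ± 0.228 to 767 ± 307 CPM with DSS in Tmem173fl/fl mice and to 61.4 ± 40.9 CPM in colitic Tmem173iΔmye mice (colitic genotypes -3.65, edgeR adjusted p = 0.0293). Il6, a fever-inducing cytokine, had at most 2 counts in any untreated library and reached 24.0 ± 14.5 CPM in Tmem173fl/fl + DSS and 4.69 ± 0.705 CPM in Tmem173iΔmye + DSS mice (colitic genotypes -2.36, edgeR adjusted p = 0.0346). Cxcl5, a neutrophil chemokine, rose by 5.59 in Tmem173iΔmye mice (adjusted p = 0.000769). Csf3, the granulocyte growth factor G-CSF, had no count in any untreated library, and with a floor of 3 counts per library it was at least 262-fold higher in colitic Tmem173fl/fl and at least 32.0-fold higher in colitic Tmem173iΔmye mice. Between colitic genotypes Csf3 differed by -3.24 (adjusted p = 0.0388) and Ptgs2, the inducible prostaglandin synthase, by -3.23 (adjusted p = 0.0264). In the interaction 8 of the 20 were called, all lower, against 1.61% of all genes, among them Lcn2 (-4.09), Cxcl1 (-3.38) and Mmp13 (-3.08). These genes also respond to other cytokines and to cell numbers, and the part of IL-1 in their levels was not tested.

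Genes of the IL-33 and type 2 response were mixed. Of 10 tested, 3 rose and 1 fell with DSS in Tmem173fl/fl mice by edgeR, against 14.9% and 7.61% of all genes. Chil3 (5.12) and Gata3 (1.48) were among those that rose and Il17rb fell by 1.02, with adjusted p of 3.72e-06, 0.0305 and 0.0142, and the median of the 10 was 0.61, or 0.24 with genes at the floor at their bound. In Tmem173iΔmye mice Chil3, a chitinase-like protein of macrophages and neutrophils, rose alone (3.36, adjusted p = 0.000679). EdgeR called none between colitic genotypes, and the median there was 0.51. Il5 and Il13, the signature type 2 cytokines, were under the filter.

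**Figure D5:**
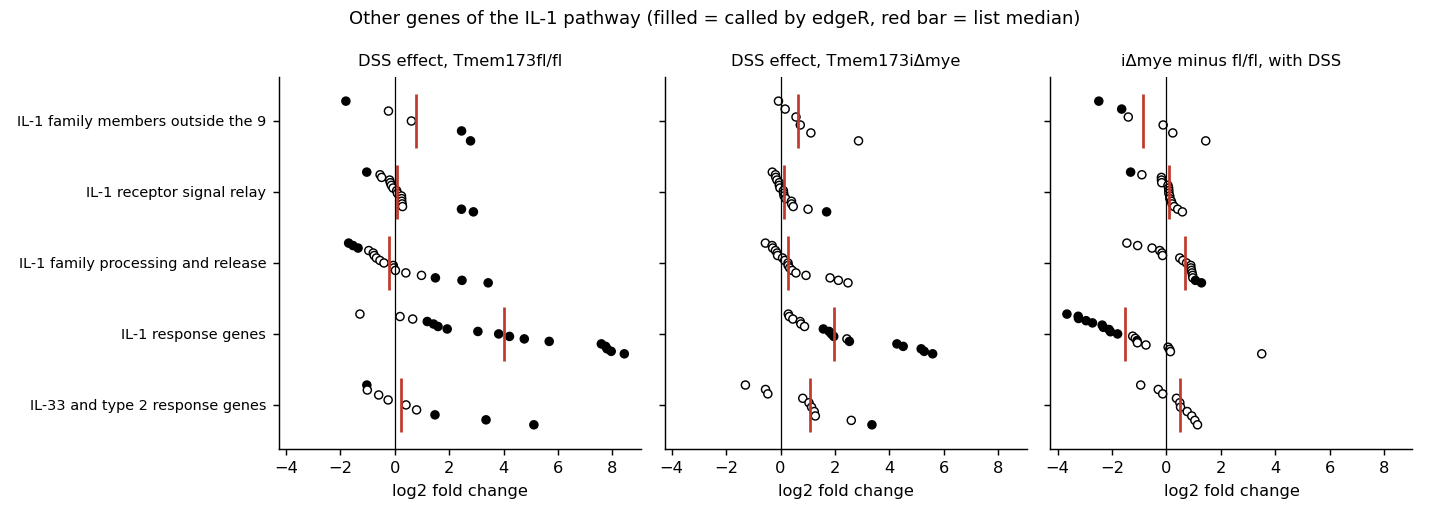
Log2 fold changes of other genes of the pathway, by list, in 3 comparisons; filled points were called by edgeR, red bars are list medians, and genes with a group at or under 3 counts in each library are not drawn but enter the median at their bound. The IL-1 response genes lie far to the right with DSS and to the left between colitic genotypes, and the signal relay genes lie near 0.

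The genes whose profile over the 12 libraries was most like each member, by the root-mean-square difference of log2 CPM centred on its mean, were found among genes with a mean of at least 1 FPKM. The closest match to Il1r1 was Lhfp (0.147), followed by Prr16 (0.156), and Prr16 also came first for Il1a (0.302), followed by Mxra8 (0.325). Trem1 (0.271) and Mmp2 (0.336) were closest to Il1r2, and Ptx3 (0.256) and Inhba (0.28) to Il1rl1. Csf2rb2 (0.323) and Fam43a (0.354) were closest to Il1b, Grem1 (0.332) and Chodl (0.353) to Il33, and Gna14 (0.351) and Gsdmcl-ps (0.365) to Il18. For Il1rn the closest were Gm15675 (0.249) and Gm15674 (0.292), and for Il1rap, whose own SD was 0.265, Prkar1a (0.0985) and App (0.114). Within the family the nearest member to Il1r1 was Il1a (0.368), and the nearest to Il18 was Il1rn at 0.771, close to the SD of Il18 itself (0.851).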

How the data were processed

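The 9 members and all gene lists were chosen with earlier results of these data known. Poly(A) RNA libraries were sequenced for the authors. Per the submitters' processing notes CASAVA 1.8, fastp, HISAT2 2.0.5, featureCounts 1.5.0-p3 and DESeq2 1.20.0 were used with GRCm38 (mm10). Strand use is not given in the sources used here. The authors deposited raw counts per gene and FPKM values for each library. They also deposited log2 fold changes, p-values and group means of their own comparisons, which were not used. No per-sample column was left unmapped (0).

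Counts of 24102 of 54532 genes (at least 0.1 FPKM in at least 3 libraries) were tested with edgeR 4.0.16 (quasi-likelihood, TMM) in R 4.3.3, fitting only the groups compared, or all 12 libraries for the interaction. A gene was called when its adjusted p (Benjamini-Hochberg) was below 0.05 and its log2 fold change was 1 or more in size. The SE is the log2 fold change divided by the square root of F. The model was tested on simulated counts. Alternatives were DESeq2 1.42.0, limma 3.58.1 on log2(FPKM + 0.1) or log2(FPKM + 1), other filters and scalings, a replicate block, single libraries left out and libraries of male pattern only. Library totals were 13823237 to 18718915 counts, and 3 counts were taken as the floor, for counting error only. Each library is 1 mouse, so p-values measure the spread between 3 mice per group.

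Named were the 9 members in every comparison, of each pathway list the up to 3 called genes with the largest rise and fall, the 2 genes with the nearest profile to each member, Tmem173 and Lyz2. Myd88, Il5 and Il13 were named after their values were seen. One gene that this rule names is not reported here. Promoters came from RefSeq (14 for the 9 members, all of which matched by symbol).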

Additional observations from a re-analysis of the deposited data

Results flagged for a closer look

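The DSS effect differed between the genotypes, by the interaction test itself, for 2 of the 9 genes. For Il1r1 the interaction was -1.395 in log2 (SE 0.27, edgeR adjusted p = 0.0173): Il1r1 was 7.42-fold higher with DSS in Tmem173fl/fl and 2.82-fold higher in Tmem173iΔmye group means. Over the libraries of male pattern it was -1.34. For Il18 the interaction was 2.127 (SE 0.51, edgeR adjusted p = 0.0417): all 3 colitic Tmem173fl/fl libraries lay below the untreated mean of 33.2 CPM, and all 3 colitic Tmem173iΔmye libraries lay above their untreated mean of 30.7 CPM. Over the libraries of male pattern the Il18 interaction was 1.27 (edgeR adjusted p = 0.19). Both interactions use all 12 libraries, and the part of cell type composition in them was not tested.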

How the results depend on the processing

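The count of 7 members called with DSS in Tmem173fl/fl mice stayed within 1.5 times, and that of 0 between untreated genotypes stayed 0, under every alternative run. With DSS in Tmem173iΔmye mice the count of 5 was 8 with an unadjusted p, no filter, DESeq2 or one fit of the 12 libraries, 0 with limma at either pseudocount, and 0 to 8 when single libraries were left out. Between colitic genotypes the count of 3 was 5 with an unadjusted p, 0 with limma at either pseudocount, and 0 to 3 when single libraries were left out. In the interaction the count of 2 was 4 with an unadjusted p, no filter or DESeq2, 1 with limma at 0.1 FPKM or with the libraries of male pattern only, and 0 to 3 when single libraries were left out. The replicate numbers do not pair the mice (correlations of deviations from -0.195 to 0.238). With a replicate block Il1b (2.62, edgeR adjusted p = 2.2e-05) and Il1r2 (3.02, adjusted p = 0.00177) were also called with DSS in Tmem173iΔmye mice. In that fit untreated replicate 3 and colitic replicate 5 have no partner, so only replicates 1 and 2 set the difference. With library totals alone the median of all genes was 0.165 with DSS in Tmem173fl/fl mice in place of 0.03 and -0.126 in place of 0.04 in the interaction; of the calls, 19.2% were then higher between colitic genotypes in place of 29.2%, and 21.3% in the interaction in place of 36.6%. Directions of members turned only between untreated genotypes: Il1b was 0.0395 and 0.00965 with limma at 0.1 and 1 FPKM, 0.0325 with the replicate block and -0.43 to 0.42 with single libraries left out, Il18 was 0.0924 over the libraries of male pattern and -0.31 to 0.0651 with single libraries left out, and Il1rn (-0.42 to 0.13), Il1rl1 (-0.16 to 0.21) and Il1rap (-0.00068 to 0.20) turned with single libraries left out. Of the ratios, Il1r2 to Il1r1 with DSS in Tmem173iΔmye mice was -0.15 with 1 FPKM added, Il1rn to Il1b ranged from -0.95 to 0.41 with DSS in Tmem173iΔmye mice and from -0.41 to 0.0615 between untreated genotypes with single libraries left out, Il18bp to Il18 between colitic genotypes was 0.21 over the libraries of male pattern and -0.63 to 0.26 with single libraries left out, and Il1rl1 to Il33 with DSS in Tmem173iΔmye mice was 0.31 and -0.62 to 0.43. The cause was not tested. Over all genes, DESeq2 called 1137 in place of 501 with DSS in Tmem173iΔmye mice, 1619 in place of 678 between colitic genotypes and 1364 in place of 614 in the interaction, and limma at 0.1 FPKM called 41, 71 and 368. With single libraries left out the calls ranged from 51 to 1469, 27 to 1593 and 267 to 1728 in these comparisons. Between untreated genotypes 0 genes were called, 68 with no filter and 94 with the replicate block.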
